A study of Mus musculus with 16 samples.

Results

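The core circadian clock was followed in fat of female mice as 10 genes, chosen by symbol. They were the activators Arntl, Clock and Npas2, the repressors Per1, Per2, Per3, Cry1 and Cry2, and the nuclear receptors Nr1d1 and Nr1d2. All 10 were among the 32187 genes measured in either fat depot, and all 10 were expressed highly enough to be tested in both. The mice came from the strain B6.129P2-Lcn2tm1Aade/AkiJ on a C57BL/6J background, and every group, controls included, is labelled as null for Lcn2, which encodes lipocalin-2, a secreted protein that binds siderophores. They were injected intravenously at 8 weeks of age with an AAV8 vector that makes either LCN2 or green fluorescent protein (GFP) under the adiponectin promoter, which is active in fat cells. The vectors carried a target sequence of miR-122, a microRNA of liver cells, so that their transcripts are degraded there. All mice ate an HF/HS diet until tissue was taken at 16 weeks of age. RNA sequencing gave 4 LCN2 samples and 4 GFP samples of gonadal fat, and as many of subcutaneous fat. The labels give no hour of sampling, nor whether equal replicate numbers in the depots mean 1 mouse.

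In mammalian cells ARNTL (BMAL1) pairs with CLOCK or its relative NPAS2 and switches on the Per, Cry and Nr1d genes through E-boxes in their promoters and enhancers. PER and CRY proteins return to the nucleus and block that pair, while NR1D1 and NR1D2 (REV-ERB alpha and beta) repress Arntl, and this delayed feedback makes a daily rhythm in which Arntl transcripts peak at about the opposite time to those of Per and Nr1d genes. Fat tissue has its own rhythm of this kind, which adjusts to feeding time, and Arntl is the member whose loss alone stops the clock in mice.

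Promoter sequences are shown because clock proteins are known to act on one another's genes through motifs of the kinds searched here. Promoters were taken from RefSeq (GRCm38.p6) as windows from 250 bases before to 50 bases after a start site, and 9 of the 10 genes, with 13 start sites, matched, Per2 being the other one. Both strands were searched. The E-box CACGTG lay in windows of Per1 and Cry1 and in 7.15% of all 32851 windows. The E-box variant CACGTT, which reads AACGTG on the other strand, lay in windows of Cry1, Cry2 and Nr1d1 and in 4.68% of all windows. The D-box, TTATGTAA or TTACGTAA, to which DBP and its relatives bind, occurred 2 times in the Per3 window and in 1.06% of all windows. The core bound by ROR and REV-ERB proteins, TAGGTCA or TGGGTCA, lay in a window of Arntl and in 6.45% of all windows. The motifs did not overlap in these windows. In the sequences below, capitals mark matches, and each promoter ends at the base before its start site. The Per1 promoter spans chr11:69098699-69098948 on the plus strand, with its E-box at -166, counted in bases from the start site. The Cry1 promoter spans chr10:85185055-85185304 on the minus strand, with the variant at -79 and the E-box at -60. The Per3 promoter spans chr4:151044666-151044915 on the minus strand, with its D-boxes at -205 and -158. The Arntl site lies at chr7:113207530-113207559 on the plus strand, just inside the transcript. Its core lies 30 bases after the more downstream of the Arntl start sites and outside the window of the upstream one.
Per1 promoter: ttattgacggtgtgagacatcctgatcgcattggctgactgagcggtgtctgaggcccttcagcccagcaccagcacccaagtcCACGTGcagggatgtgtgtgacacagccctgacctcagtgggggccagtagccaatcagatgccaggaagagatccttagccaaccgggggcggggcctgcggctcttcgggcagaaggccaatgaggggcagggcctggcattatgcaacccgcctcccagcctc
Cry1 promoter: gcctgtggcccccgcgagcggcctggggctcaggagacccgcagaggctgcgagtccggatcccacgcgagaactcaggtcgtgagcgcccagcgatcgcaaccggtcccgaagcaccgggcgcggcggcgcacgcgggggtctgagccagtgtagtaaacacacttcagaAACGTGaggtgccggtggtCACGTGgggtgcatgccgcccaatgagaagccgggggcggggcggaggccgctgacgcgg
Per3 promoter: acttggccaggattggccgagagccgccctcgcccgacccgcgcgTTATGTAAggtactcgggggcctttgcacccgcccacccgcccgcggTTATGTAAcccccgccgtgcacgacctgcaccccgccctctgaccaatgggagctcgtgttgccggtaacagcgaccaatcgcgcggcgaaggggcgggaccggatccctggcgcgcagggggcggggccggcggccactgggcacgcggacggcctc
Arntl site: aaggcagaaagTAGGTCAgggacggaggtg

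Lcn2 checked the labels. In gonadal fat it had 186, 189, 522 and 481 normalized counts in LCN2 samples 1 to 4, against 103, 62.1, 69.997 and 89.5 in GFP samples 1 to 4. In subcutaneous fat it was 8.74, 8.49, 9.45 and 9.82 rlog units in LCN2 samples, against 7.76, 8.32, 8.23 and 8.37 in GFP samples. The log2 difference of Lcn2, LCN2 minus GFP, was 1.93 ± 0.37 (SE) in gonadal fat, with an adjusted p of 0.108 in limma. In subcutaneous fat it was 0.95 ± 0.29 (SE), with an adjusted p of 0.308 in limma. Lcn2 itself thus did not pass, in either depot, the adjusted test that is applied to the clock genes below. No GFP sample reached the lowest LCN2 sample in either depot. Reads assigned to Lcn2 were nonetheless present in every GFP sample, although these mice are labelled as Lcn2-null and received no LCN2 vector, so Lcn2 checks the vector groups and not the absence of the gene. A normalized count is a read count divided by a size factor per sample, and rlog is a log2 scale that draws low genes towards their mean. Gonadal libraries held between 35173260 and 42890102 reads, and the depth of subcutaneous libraries is unknown. Summed transcripts of 7 adipocyte markers were between 646401 and 779577 normalized counts in gonadal LCN2 samples and between 608660.0 and 869206 in GFP samples, and none of the 7 was at 0 everywhere. Several libraries stood apart by transcripts of other tissues. In gonadal fat, 7 skeletal muscle markers summed to 50449 in LCN2 4 and 7948 in LCN2 1, and 7 hepatocyte markers summed to 41679 in LCN2 2, 17175 in LCN2 1 and 14676 in GFP 1. In subcutaneous fat, 7 lymphocyte and lymph node markers summed to 10413 in GFP 1 and 5470 in GFP 2 on the linear scale, and to at most 2241 in the others. Hepatocyte markers summed to 10149 in subcutaneous GFP 2, against 1999.7 to 3381 in the other 7 samples, with 0 of 7 higher in LCN2. In these bulk samples, fewer cells of a type and less RNA per cell cannot be told apart.

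In gonadal fat the activators had higher mean levels and the other 7 members lower mean levels with LCN2 than with GFP, and Arntl had the widest difference of the 10. The Arntl mean was 264 ± 127 normalized counts in LCN2 fat and 74.9 ± 48.6 in GFP fat (SD, n = 4 each), a ratio of 3.53. None of the 10 passed the test at an adjusted p of 0.05 with limma, which called 20 of 19536 genes, or 0.102%. Before adjustment Arntl, Clock, Per2 and Nr1d2 were under 0.05, 4 of 10 members, against 14.8% of all genes tested. The members' median absolute log2 difference was 0.53, against 0.16 over all genes, and 12.8% of all genes had an absolute difference above 0.53.

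**Figure D1:**
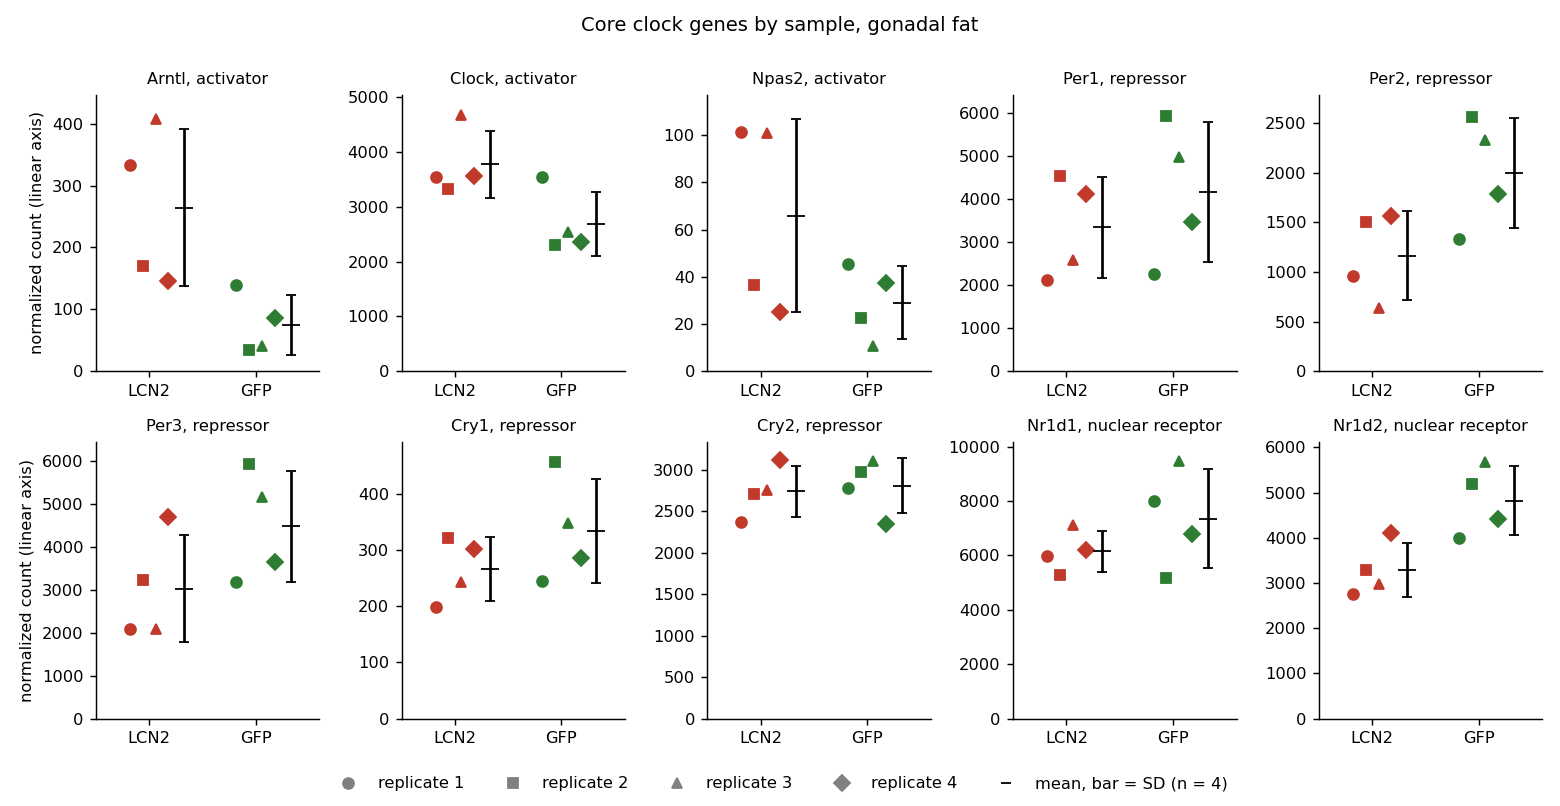
Normalized counts of the 10 clock genes in gonadal fat, on linear axes that start at 0, with 1 point per sample (the shape gives the replicate number) and the mean with its SD (n = 4) beside each group, LCN2 on the left. The 4 LCN2 points of Arntl lie between 145 and 407, above the 4 GFP points between 34.6 and 139, and the groups overlap for each of the other 9 genes.

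Arntl (ENSMUSG00000055116, chromosome 7, 113207465 to 113314126 on the plus strand, GRCm38) encodes a partner of both CLOCK and NPAS2. It had 334, 169, 407 and 145 normalized counts in LCN2 samples 1 to 4, against 139, 34.6, 40.3 and 85.4 in GFP samples 1 to 4. All 4 LCN2 samples lay above the highest GFP sample, GFP 1, though LCN2 4 did so by a small margin. The log2 difference, LCN2 minus GFP, was 1.90 ± 0.49 (SE), with an adjusted p of 0.174 in limma and an exact permutation p of 0.0286, the smallest that 4 against 4 samples can give and 1 of 20 such unadjusted tests. Arntl was the only member whose groups did not overlap in gonadal fat, 1 of 10, against 9.11% of all genes. Without LCN2 4 and GFP 2, the sample of each group highest in muscle markers, the difference was 1.85, with an adjusted p of 0.507 in limma. That fit kept LCN2 1, whose muscle markers summed to 7948 against 4395 in GFP 2. The difference was 2.28 without the 3 libraries high in hepatocyte markers, with an adjusted p of 0.494 in limma. On reads recovered from the deposited values, DESeq2 called Arntl, with a log2 difference of 1.81 and an adjusted p of 0.0111, where it called 818 of 19067 genes, or 4.29%. edgeR's quasi-likelihood test on the same reads gave 1.81 with an adjusted p of 0.201, and called 0.0358% of genes and none of the 10 members.

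Clock (ENSMUSG00000029238, chromosome 5, 76209868 to 76304792, minus strand), the DNA-binding partner and histone acetyltransferase, had 3538, 3320.0, 4683 and 3568 normalized counts in LCN2 samples, against 3552, 2310.5, 2542 and 2362 in GFP samples. GFP 1 stood within the LCN2 samples and the other 3 GFP samples stood below all of them. The log2 difference was 0.50 ± 0.16 (SE), with an adjusted p of 0.215 in limma. Npas2 (ENSMUSG00000026077, chromosome 1, 39193731 to 39363236, plus strand), which can stand in for CLOCK, had 101, 36.3, 101 and 25.1 normalized counts in LCN2 samples, against 45.4, 22.4, 10.6 and 37.3 in GFP samples. LCN2 1 and LCN2 3 stood high and the other 6 samples mixed. Its log2 difference was 1.10 ± 0.57 (SE), with an adjusted p of 0.418 in limma. LCN2 3 was the highest sample for Arntl and Clock and within 1 count of the highest for Npas2.

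The Period genes encode the scaffold proteins of the repressor complex. Per2 (ENSMUSG00000055866, chromosome 1, 91415982 to 91459324, minus strand) had 958, 1499.6, 636 and 1565 normalized counts in LCN2 samples, against 1329, 2559.7, 2332 and 1785 in GFP samples. LCN2 3 and LCN2 1, the samples highest for Arntl, were the lowest for Per2, and GFP 2 and GFP 3, the lowest for Arntl, were the highest. The log2 difference was -0.83 ± 0.31 (SE), with an adjusted p of 0.265 in limma. Per3 (ENSMUSG00000028957, chromosome 4, 151003652 to 151044665, minus strand), whose promoter holds the pair of D-boxes shown above, had 2079.8, 3236, 2099 and 4702 normalized counts in LCN2 samples, against 3177, 5928, 5173 and 3641 in GFP samples. Its groups overlapped through LCN2 4, the third highest of the 8 samples, and the log2 difference was -0.60 ± 0.30 (SE) with an adjusted p of 0.385 in limma. Per1 (ENSMUSG00000020893, chromosome 11, 69095217 to 69109960, plus strand), which also responds within hours to glucocorticoid and cAMP signals, had 2119.8, 4537, 2583 and 4123 normalized counts in LCN2 samples, against 2259, 5930.3, 4972 and 3474 in GFP samples. The spread within each group, with SDs of 1170.3 in LCN2 and 1620.5 in GFP samples, was wider than the gap between the means of 3341 in LCN2 and 4159 in GFP samples. Its log2 difference was -0.29 ± 0.34 (SE), with an adjusted p of 0.747 in limma.

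The Cryptochrome genes encode the proteins that hold the ARNTL pair inactive. Cry1 (ENSMUSG00000020038, chromosome 10, 85131700 to 85185064, minus strand), with the E-box and its variant in the sequence above, had 198, 322, 243 and 302 normalized counts in LCN2 samples, against 245, 456, 349 and 285 in GFP samples. GFP 2 and GFP 3 were the highest samples, as for the Period genes, and LCN2 1 was the lowest. The log2 difference was -0.31 ± 0.22 (SE), with an adjusted p of 0.563 in limma. Cry2 (ENSMUSG00000068742, chromosome 2, 92403646 to 92434043, minus strand) had the narrowest relative range of the 10 genes and the smallest difference. Its normalized counts were 2371, 2708, 2759 and 3121 in LCN2 samples, against 2782, 2976, 3106 and 2349 in GFP samples. The log2 difference was -0.03 ± 0.12 (SE), with an adjusted p of 0.934 in limma, and it was 0.073 without the 3 libraries high in hepatocyte markers.

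The nuclear receptors NR1D1 and NR1D2 bind heme and repress Arntl through sites like the one shown. Nr1d2 (ENSMUSG00000021775, chromosome 14, 18204054 to 18239127, minus strand) had 2767, 3293, 2969 and 4114 normalized counts in LCN2 samples, against 3997, 5197, 5676 and 4416 in GFP samples. LCN2 4 stood above GFP 1, and apart from that pair every LCN2 sample was below every GFP sample. The log2 difference was -0.56 ± 0.15 (SE), with an adjusted p of 0.181 in limma, 0.197 in edgeR and 0.0305 in DESeq2, which thus called Arntl and Nr1d2 and none of the other 8. Nr1d1 (ENSMUSG00000020889, chromosome 11, 98767932 to 98775333, minus strand) had 5986, 5271, 7127 and 6212 normalized counts in LCN2 samples, against 8004, 5173, 9469.7 and 6783 in GFP samples. It did not follow the order of its relative, GFP 2 being the lowest sample for Nr1d1 and the second highest for Nr1d2. Its log2 difference was -0.23 ± 0.18 (SE), with an adjusted p of 0.610 in limma. Exons of Thra on the opposite strand cover 8.55% of the exonic length of Nr1d1, those of D930015M05Rik 4.67% of Cry2 and those of Gm45355 0.439% of Arntl. Whether the counting used strand is not given in the sources used here, so reads of such pairs may be shared.

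**Figure D2:**
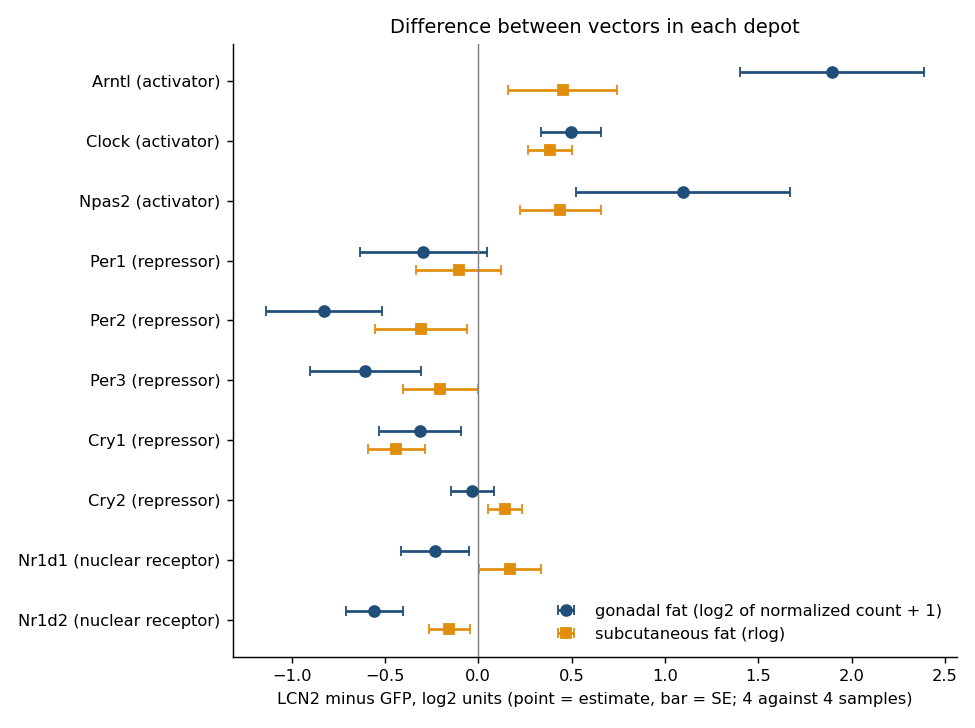
Log2 differences, LCN2 minus GFP, of the 10 clock genes with bars of 1 SE (limma, n = 4 against 4) in each depot. Subcutaneous values are on the rlog scale, which draws low genes towards their mean, so bar lengths are not comparable between depots. Activators lie right of 0 in both depots, from 0.50 to 1.90 in gonadal and from 0.38 to 0.45 in subcutaneous fat, and no difference passed the adjusted threshold.

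Per kilobase of exonic length, which allows levels to be set side by side between genes, Nr1d1 was the most abundant member in gonadal fat, with a mean of 1998 ± 249 normalized counts per kb in LCN2 samples and 2391 ± 593 in GFP samples (SD, n = 4 each). Nr1d2 and Per1 came next, at 607 ± 109.7 and 593 ± 208 normalized counts per kb in LCN2 samples, a gap within their spread. In GFP samples Nr1d2 and Per1 were at 891 ± 139.8 and 739 ± 288 normalized counts per kb. The ranges of Cry2, at 434 ± 48.6 with LCN2 and 444 ± 52.4 with GFP, and Per3, at 315 ± 129 with LCN2 and 466 ± 134 with GFP, overlapped in both groups. Within a sample, Cry2 was above Per3 in every LCN2 sample and in GFP 1, and below it in GFP 2, GFP 3 and GFP 4. Clock, at 275 ± 44.7 normalized counts per kb, had a higher mean than Per2, at 199 ± 76.0, with LCN2, but Per2 was above Clock in LCN2 2 and LCN2 4. With GFP the mean of Clock was 196 ± 42.4 and that of Per2 342 ± 94.5 normalized counts per kb, with Clock above Per2 in GFP 1, so these neighbours overlapped in both groups. Cry1 was at 79.7 ± 16.9 with LCN2 and 99.9 ± 27.6 with GFP. Arntl and Npas2 were the least abundant members per kb in both groups. Arntl was at 35.1 ± 16.9 normalized counts per kb with LCN2 and 9.95 ± 6.45 with GFP, and Npas2 at 13.8 ± 8.54 with LCN2 and 6.03 ± 3.23 with GFP. The ranges of Arntl and Npas2 overlapped within each group. Within a sample, Arntl was above Npas2 in every case except GFP 2, at 4.60 for Arntl and 4.67 for Npas2.

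In subcutaneous fat the 3 activators again had higher means with LCN2, while the repressors and nuclear receptors split, with 2 higher and 5 lower. None of the 10 members passed the test, and limma called 0 of 20302 genes there, or 0.0%. Of all genes 2851 were under 0.05 before adjustment, or 14.0%, and these held 2 of the 10 members, Clock and Cry1. The median absolute difference of the members was 0.26 rlog units, against 0.09 over all genes, and 15.6% of all genes exceeded that of the members.

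**Figure D3:**
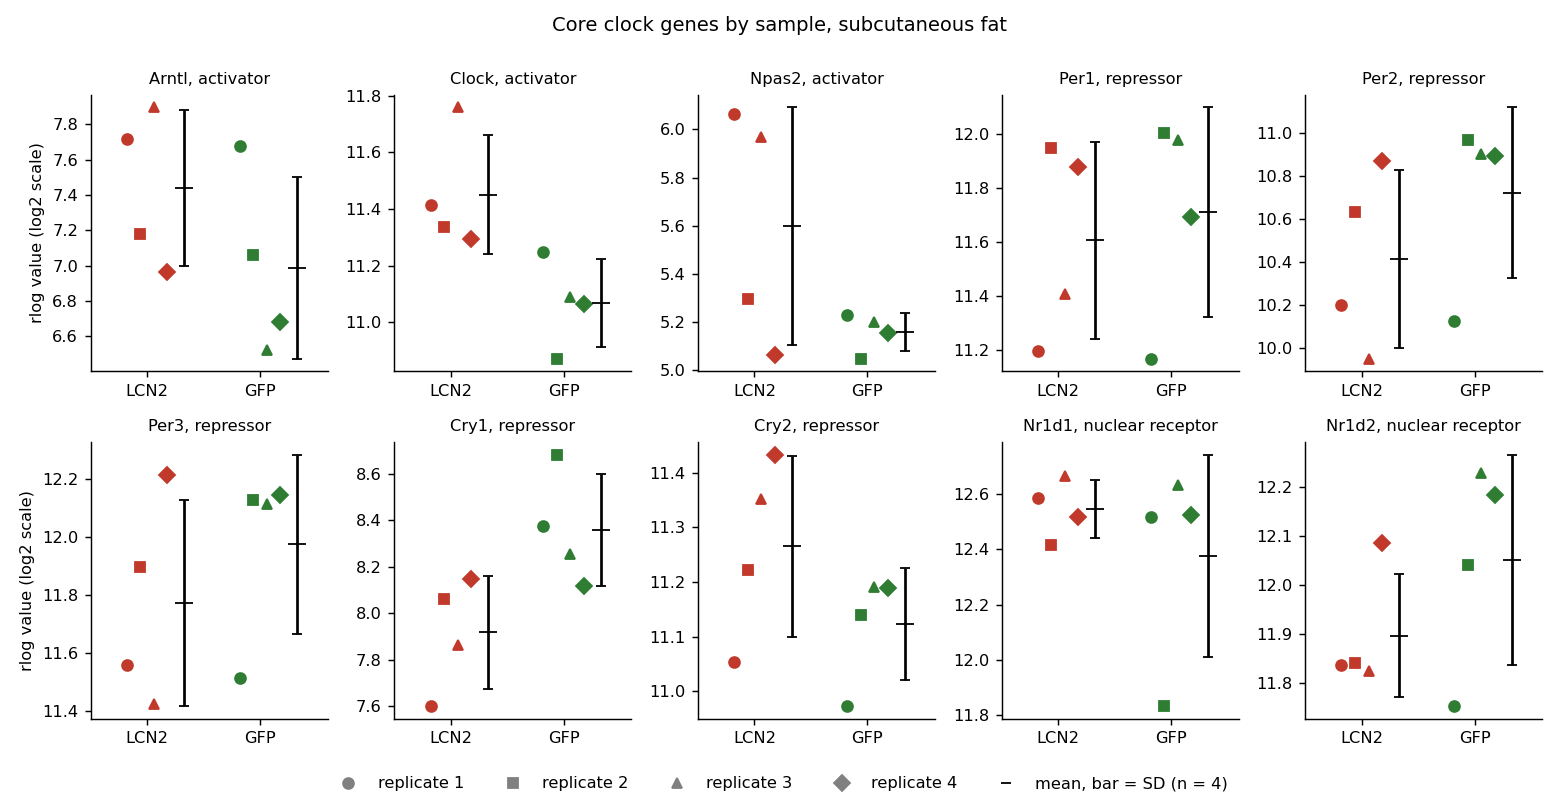
Rlog values (log2 scale, axes not starting at 0) of the 10 clock genes in subcutaneous fat, with 1 point per sample (the shape gives the replicate number) and the mean with its SD (n = 4) beside each group, LCN2 on the left. Clock is the gene whose groups do not overlap, with LCN2 samples between 11.29 and 11.76 and GFP samples between 10.87 and 11.25.

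Clock was 11.41, 11.34, 11.76 and 11.29 rlog units in LCN2 samples 1 to 4, against 11.25, 10.87, 11.09 and 11.06 in GFP samples 1 to 4. Every LCN2 sample was above every GFP sample, which held for 1 of 10 members and 7.08% of all genes. The difference was 0.38 ± 0.12 (SE), with an adjusted p of 0.308 in limma and an exact permutation p of 0.0286, unadjusted. Arntl was 7.71, 7.18, 7.90 and 6.96 rlog units in LCN2 samples, against 7.68, 7.06, 6.52 and 6.68 in GFP samples. GFP 1 stood beside LCN2 1, and LCN2 4 stood below GFP 2, so its groups overlapped here, with a difference of 0.45 ± 0.29 (SE) and an adjusted p of 0.489 in limma. Without the 2 libraries high in lymph node markers, GFP 1 and GFP 2, it was 0.83, with an adjusted p of 0.905. Npas2 was 6.06, 5.29, 5.97 and 5.06 rlog units in LCN2 samples, against 5.23, 5.05, 5.20 and 5.15 in GFP samples. As in gonadal fat, LCN2 1 and LCN2 3 stood above the other 6 samples, and the difference was 0.44 ± 0.22 (SE) with an adjusted p of 0.398 in limma.

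Cry1 was 7.60, 8.06, 7.86 and 8.14 rlog units in LCN2 samples, against 8.37, 8.68, 8.25 and 8.12 in GFP samples. Only GFP 4 was below an LCN2 sample, LCN2 4, and the difference was -0.44 ± 0.15 (SE) with an adjusted p of 0.313 in limma. Cry2 was 11.05, 11.22, 11.35 and 11.43 rlog units in LCN2 samples, against 10.97, 11.14, 11.19 and 11.19 in GFP samples. Cry2 was thus the repressor whose mean was higher with LCN2, by 0.14 ± 0.09 (SE), with an adjusted p of 0.483 in limma. Per2 was 10.20, 10.63, 9.95 and 10.87 rlog units in LCN2 samples, against 10.13, 10.97, 10.90 and 10.89 in GFP samples. Per3 was 11.56, 11.90, 11.42 and 12.22 rlog units in LCN2 samples, against 11.51, 12.13, 12.12 and 12.15 in GFP samples. For both, GFP 1 lay with LCN2 1 and LCN2 3 at the low end, far below the other GFP samples. Per1 was 11.20, 11.95, 11.41 and 11.88 rlog units in LCN2 samples, against 11.17, 12.00, 11.98 and 11.69 in GFP samples, with GFP 1 the lowest of the 8. The differences of Per1, Per2 and Per3 were -0.10, -0.31 and -0.20, with adjusted p in limma of 0.849, 0.566 and 0.647.

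Nr1d2 was 11.84, 11.84, 11.83 and 12.08 rlog units in LCN2 samples, against 11.75, 12.04, 12.23 and 12.18 in GFP samples. Nr1d1 was 12.58, 12.42, 12.67 and 12.52 rlog units in LCN2 samples, against 12.52, 11.83, 12.63 and 12.53 in GFP samples. The groups of both overlapped, and GFP 2 alone lay low for Nr1d1. Their differences were -0.15 ± 0.11 and 0.17 ± 0.17 (SE), with adjusted p in limma of 0.528 and 0.640, and that of Nr1d1 was -0.032 without the 2 libraries high in lymph node markers and -0.012 without GFP 2 alone.

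Among 12 further transcription factors of the clock's output and feedback, all tested, 3 had higher and 9 lower means with LCN2 in each depot, and none passed the test. The median log2 difference of the 12 was -0.40 in gonadal and -0.13 in subcutaneous fat, where the medians over all genes were 0.01 and -0.00078. Dbp, whose protein binds D-boxes like those of Per3, had 1509 ± 586 normalized counts in gonadal LCN2 samples and 3157 ± 1165 in GFP samples (SD, n = 4 each). Its log2 difference was -1.06 ± 0.34 (SE), with an adjusted p of 0.211 in limma. Ciart, a repressor of the ARNTL pair, averaged 84.7 ± 33.6 in LCN2 samples and 189 ± 83.2 in GFP samples (normalized counts, SD, n = 4 each), a difference of -1.11 ± 0.38 (SE) with an adjusted p of 0.229 in limma. In subcutaneous fat the differences of Dbp and Ciart were -0.44 ± 0.21 and -0.36 ± 0.18 (SE), with adjusted p in limma of 0.376 and 0.400.

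Of 20 genes for enzymes and cofactors that act on clock proteins, all tested, 7 had higher and 13 lower means in gonadal LCN2 fat and 10 each way in subcutaneous fat, and none passed the test. Gsk3b, a kinase that phosphorylates PER, CRY and NR1D1 proteins, had between 4523 and 5092 normalized counts in gonadal LCN2 samples and between 3604 and 4309 in GFP samples. In subcutaneous fat it was between 11.96 and 12.06 rlog units with LCN2 and between 11.62 and 11.91 with GFP. Its groups were apart in both depots, as were those of 9.11% of all genes in gonadal and 7.08% in subcutaneous fat, with differences of 0.29 ± 0.09 and 0.21 ± 0.07 (SE) and adjusted p in limma of 0.203 and 0.313. Of the 20 genes 2 were apart in each depot, the other being lower with LCN2, Sirt1 in gonadal and Nono in subcutaneous fat, both named after their values were seen. Nampt, the enzyme of NAD synthesis that feeds SIRT1, had differences of -0.46 in gonadal and -0.30 in subcutaneous fat, with adjusted p in limma of 0.513 and 0.341. Usp2, a deubiquitinase of clock proteins, had differences of -0.40 and -0.29, with adjusted p in limma of 0.665 and 0.581. For Nampt and Usp2 the GFP samples were the more spread group in both depots.

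The order of samples was then compared between Arntl and each other member, using deviations from the group means so that the LCN2 against GFP difference does not enter. Over the 8 gonadal samples, high Arntl went with low Per2, at Pearson r = -0.94 and Spearman rho = -0.86, with an exact permutation p of 0.0017, the smallest possible, and 0.0156 after Benjamini-Hochberg adjustment over 18 relations. Nr1d2 gave r = -0.89 and rho = -0.90 in gonadal fat (adjusted exact p = 0.0357), and r = -0.90 and rho = -0.98 in subcutaneous fat (adjusted exact p = 0.0156). Of the 18 relations, 12 were negative and 8 passed by Pearson's r, all of them negative. They were those of Per1, Per2, Per3, Cry1 and Nr1d2 in gonadal fat, with r between -0.95 and -0.89, and those of Per2, Per3 and Nr1d2 in subcutaneous fat, with r between -0.93 and -0.90. By Spearman's rho 4 of the 18 passed, those of Per2, Per3 and Nr1d2 in gonadal and Nr1d2 in subcutaneous fat.

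Clock and Npas2, the partners of Arntl, moved the same way as Arntl, with r of 0.75 and 0.88 in gonadal fat and 0.64 and 0.65 in subcutaneous fat, and adjusted exact p between 0.0556 and 0.167. Subcutaneous Per1 gave r = -0.83 with an adjusted exact p of 0.0767. Cry2 gave r = -0.60 and -0.61 in gonadal and subcutaneous fat, with adjusted exact p of 0.217 and 0.167. Subcutaneous Cry1, at r = -0.15, and Nr1d1, at r = 0.37 in gonadal and 0.01 in subcutaneous fat, had little relation to Arntl. Without the 2 samples of each depot farthest from the median of Arntl, GFP 2 and GFP 3 in gonadal and LCN2 3 and GFP 3 in subcutaneous fat, all 18 relations kept their sign. The 8 named above then had r between -0.97 and -0.84. None of the 18 passed with 6 samples, where the smallest possible exact p is 0.0208 in gonadal and 0.0278 in subcutaneous fat before adjustment. In gonadal fat the Arntl deviations lay below 0 in 4 samples (LCN2 2, LCN2 4, GFP 2 and GFP 3) and above 0 in the other 4, with a gap between. The relations there may rest on that separation, and they were not tested within either set. All relations share the same 8 samples and the Arntl values, so they are not independent of one another.

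**Figure D4:**
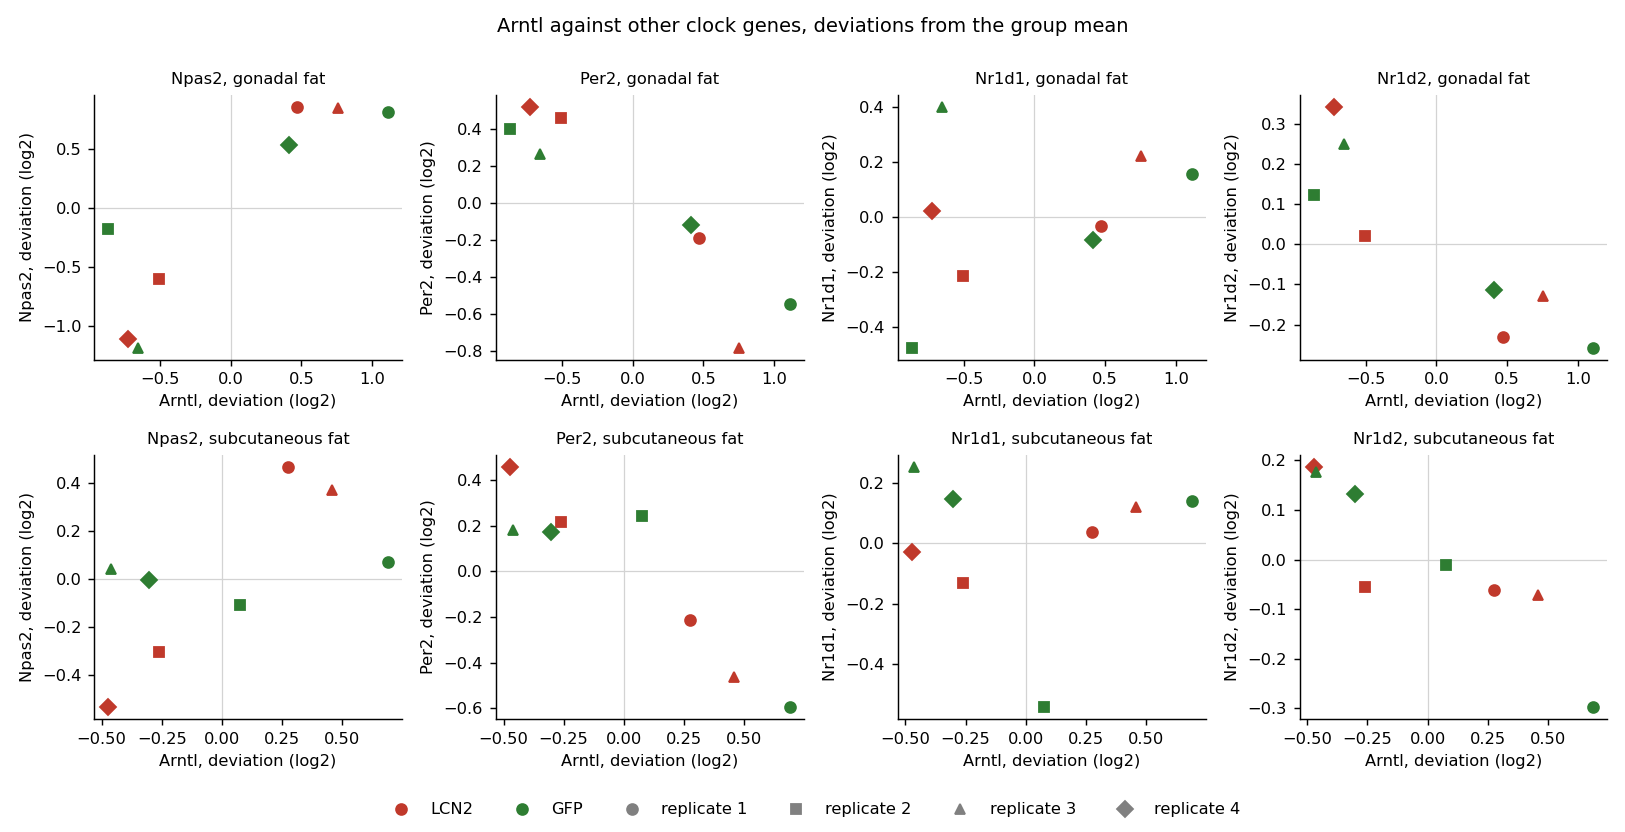
Deviations from the group mean (log2 scale) of Npas2, Per2, Nr1d1 and Nr1d2 against those of Arntl in the 8 samples of each depot (gonadal above, subcutaneous below), with colour for the vector and shape for the replicate number. Per2 and Nr1d2 run opposite to Arntl in both depots, with r between -0.94 and -0.89, Npas2 runs with it at r of 0.88 and 0.65, and Nr1d1 shows r of 0.37 and 0.01.

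A single value per sample summarises this order, the mean of the 3 activators minus the mean of the other 7 members, each centred on its mean over the 8 samples on the log2 scale. In gonadal fat it was 1.50, 0.18, 1.65 and -0.19 in LCN2 samples 1 to 4, against 0.32, -1.44, -1.67 and -0.36 in GFP samples 1 to 4. In subcutaneous fat it was 0.71, -0.03, 0.79 and -0.36 in LCN2 samples, against 0.31, -0.42, -0.55 and -0.44 in GFP samples. The samples ranked LCN2 3, LCN2 1, GFP 1, LCN2 2 and LCN2 4 from the top in both depots, with the other 3 GFP samples below them. Samples of one group thus differed by as much as 2.00 between GFP 1 and GFP 3 and 1.84 between LCN2 3 and LCN2 4 in gonadal fat, against 1.57 between the group means.

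**Figure D5:**
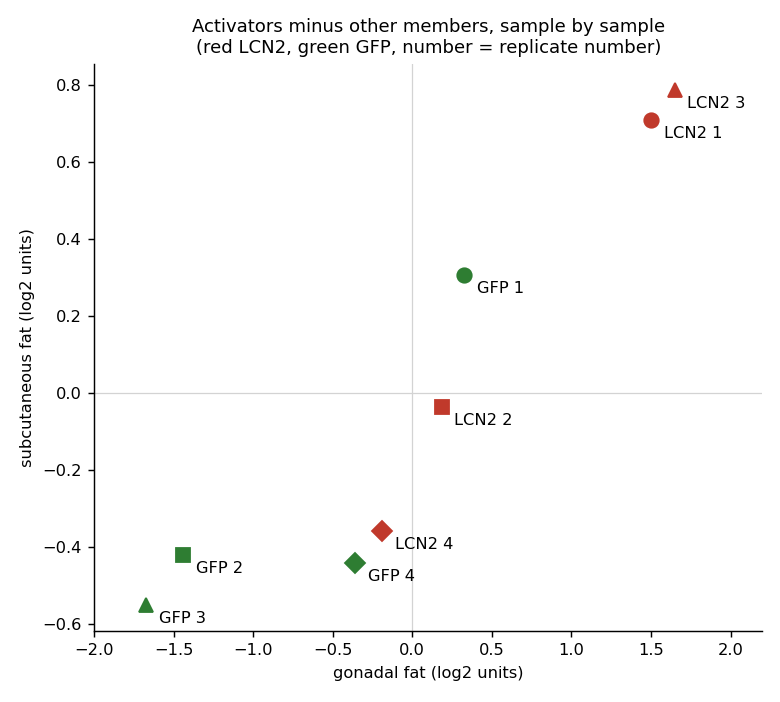
The mean of the 3 activators minus the mean of the other 7 clock genes (centred log2 values) in subcutaneous against gonadal fat, with 1 point per group and replicate number. LCN2 3 and LCN2 1 are highest in both depots, at 1.65 and 1.50 in gonadal fat, and GFP 3 is lowest, at -1.67.

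Deviations from the group mean of the same group and number were also set side by side between depots, over 8 pairs. For Arntl, r was 0.77 (exact permutation p = 0.0625) and rho 0.74 (p = 0.0712). Without the pairs GFP 2 and GFP 3, r rose to 0.93 (exact permutation p = 0.0417) and rho fell to 0.66. For the other 9 members r lay between 0.52 for Cry2 and 0.99 for Per1, given as a description. Per1 ran closest, with deviations in 1 depot following the other almost sample for sample. For Cry1, r was 0.22 without the 2 pairs farthest from its median, LCN2 1 and GFP 2, against 0.80 with all 8. Over the 10 members together, a gonadal sample correlated best with the subcutaneous sample of its own number in 7 of 8 cases, GFP 4 being the exception at r = -0.44. Over all 19109 genes tested in both depots the same held in 6 of 8 cases.

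The genes whose pattern over the 8 samples of a depot was most like that of Arntl were found among those with a mean of at least 100 normalized counts or 6 rlog units, with both groups pooled and r as a description. Of 11595 gonadal genes, Bcl3, Mdm2, Rubcn, Ankrd50 and Utp14b ran most closely with Arntl, at r between 0.96 and 0.98. Ciart, Ankrd12, Slmap, Klf9 and Zfp354a ran most nearly opposite, all at r = -0.97. Nr1d2, at -0.96, was next to these and Per2, at -0.95, not far behind. Of 12396 subcutaneous genes, Nop9, Casp1, Il4ra, Map3k3 and Themis2 were most like Arntl, at r between 0.92 and 0.97. Bckdhb, Tef, Per2, Per3 and Adam1a were most nearly opposite, at r between -0.95 and -0.93. Per2 and Per3 are members, and Tef, which encodes a relative of DBP, and Ciart belong to the clock's output and feedback factors. No gene was among these 10 in both depots.

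Other tissues' transcripts moved with the vector groups in part. In gonadal fat, 7 mesothelium markers summed to between 2642 and 6176 normalized counts in LCN2 samples and between 6078 and 12606 in GFP samples, with 0 of 7 higher in LCN2. Endothelium markers summed to between 35611 and 40831 in LCN2 samples and between 17800.0 and 36623 in GFP samples, with 7 of 7 higher. GFP 2 and GFP 3, the samples lowest in Arntl, were also the lowest in endothelium markers. The same samples were the highest in gonadal adipocyte markers, at 869206 in GFP 2 and 821211 in GFP 3, against at most 779577 in the others. All 7 muscle and all 7 hepatocyte markers had higher means in gonadal LCN2 samples. Muscle sums were between 3664 and 50449 in LCN2 samples and between 2457 and 4395 in GFP samples, and hepatocyte sums between 1763 and 41679 in LCN2 samples and between 1944 and 14676 in GFP samples. In subcutaneous fat, endothelium markers summed to between 23638 and 28172 in LCN2 samples and between 15342 and 26259 in GFP samples, with 7 of 7 higher. Lymph node markers there summed to between 435 and 2241 in LCN2 samples and between 553 and 10413 in GFP samples, with 0 of 7 higher. Adipocyte markers, with 2 of 7 higher in gonadal and 6 of 7 in subcutaneous LCN2 fat, and macrophage markers, with 4 and 6 of 7, overlapped between groups in both depots. No gonadal marker was at 0 in every sample. The part of mesothelial, endothelial and adipocyte transcripts in the clock gene values was not tested.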

How the data were processed

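RNA sequencing covered gonadal and subcutaneous fat, with 4 LCN2 and 4 GFP samples each, grouped and numbered by the labels. Apart from the group size, no label says that samples are separate mice, and the p-values cover only the spread between samples, which may be technical. RNA came from frozen tissue and went into stranded mRNA libraries, per the labels' protocols. Per the submitters' processing notes, tools were HISAT2 and DESeq2 and builds GRCm38 and mm10. Not given in the sources used here are their versions, the annotation, and the counter with its strand setting.

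The gonadal table deposited by the authors holds a signal per gene, a read count divided by 1 size factor per sample. Dividing by the value of 1 read gave whole numbers for 100% of values within 1e-06, and these recovered reads totalled between 35173260 and 42890102 per sample, with a median of 37423116. In them 3 reads equal 0.0699 to 0.0853 CPM, a floor for counting error only. The subcutaneous table deposited by the authors holds rlog values, on a log2 scale, and its depth is unknown. The tables were normalized separately, so tests stayed within a table. Of their IDs, 99.2% in each matched a symbol, and coordinates and exonic lengths come from GENCODE on GRCm38.

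limma 3.58.1 (R 4.3.3, intensity trend, two-sided) was fitted to log2(normalized count + 1) of 19536 gonadal genes with a mean of at least 10, and to rlog values of 20302 subcutaneous genes with a mean of at least 3. The pseudocount of 1 and the rlog scale both understate changes of low genes. P-values were adjusted over all genes tested (Benjamini-Hochberg, threshold 0.05). Each member also had a two-sided exact permutation test per depot, unadjusted. On recovered reads, edgeR 4.0.16 called 7 genes and DESeq2 1.42.0 called 818. Scripts were tested on simulated data. Other clock genes come from lists of 12 and 20, of which the 3 with the widest difference per depot are named, except 1 gene that is not reported here. The genes most like Arntl are the 5 highest and the 5 lowest by r. The members and lists were chosen with earlier results of these data known. Alternatives covered scaling, filters, pseudocounts, tests, a replicate block and leaving out libraries.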

Additional observations from a re-analysis of the deposited data

Results flagged for a closer look

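Samples far from the rest of their group were looked for in 64 groups of 4 by Dixon's ratio of a sample's gap to the group's whole range, at its critical value for 4 samples, and 5 were found, all in subcutaneous fat. Chance gives about 1 in 20 groups. Per2 in GFP 1 was 10.13 rlog units, against 10.89 to 10.97 in the other GFP samples. Per3 in GFP 1 was 11.51, against 12.12 to 12.15. Nr1d1 in GFP 2 was 11.83, against 12.52 to 12.63 in the other GFP samples. Nr1d2 in LCN2 4 was 12.08, against 11.83 to 11.84 in the other LCN2 samples. Gsk3b in LCN2 3 was 12.06, against 11.96 to 11.97. GFP 1 and GFP 2 are also the subcutaneous libraries high in lymph node markers, at 10413 and 5470 in sum, and GFP 2 is the one high in hepatocyte markers, at 10149. Their part in these values was not tested.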

How the results depend on the processing

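Of 199 gonadal fits of a member under an alternative, 194 kept the direction and the side of the threshold, as did 146 of 149 in subcutaneous fat. DESeq2 called 2 members, Arntl and Nr1d2; every other gonadal alternative called 0. The gonadal count of 20 genes (8 higher, 12 lower) was 11 with a mean of at least 50, 6 (4 higher, 2 lower) with library totals, 7 with edgeR, 818 with DESeq2 and 71 with sample quality weights. It was 0 without LCN2 4 and GFP 2, the sample of each group highest in muscle markers (1689 at an unadjusted limma p under 0.05). LCN2 1, higher in these markers than GFP 2, stayed in that fit. The count was also 0 without the 3 libraries high in hepatocyte markers (1622). Without any 1 sample it was between 1 and 66. It was 1 without LCN2 3, GFP 2 or GFP 3, 2 without GFP 1, 3 without LCN2 4 and 66 without GFP 4. These fits use fewer samples; for the other settings the cause was not tested. The directions that turned were small. Gonadal Cry2 ranged from -0.11 to 0.035 without any 1 sample, turning without LCN2 replicate 1 (0.035) and GFP replicate 3 (0.020), and was 0.073 without the hepatocyte-high libraries. Subcutaneous Per1 ranged from -0.29 to 0.032, turning without LCN2 replicate 1, and Nr1d1 from -0.012 to 0.25, turning without GFP replicate 2, and was -0.032 without the 2 libraries high in lymph node markers. Without any 1 sample, gonadal differences that kept their direction still moved widely for Npas2 (0.70 to 1.47), Per1 (-0.56 to -0.092), Cry1 (-0.45 to -0.15) and Nr1d1 (-0.39 to -0.099), as did subcutaneous Arntl (0.30 to 0.68) and Npas2 (0.28 to 0.62); gonadal Arntl was 1.61 to 2.27. Gonadal Arntl against Nr1d1 gave r = -0.13 with groups pooled, and 11 of 18 relations passed then. Without the 2 samples farthest from the median of Arntl, 0 of 18 relations passed, against 8. The relation of Arntl between depots then had r = 0.93 and rho = 0.66. LCN2 and GFP samples of a number did not deviate together (r between -0.36 and 0.42 in gonadal and -0.36 and 0.34 in subcutaneous fat), so the numbers were not taken to pair LCN2 with GFP samples within a depot; with a replicate block limma called 0 genes in gonadal fat (2636 unadjusted), 0 in subcutaneous fat (3200 unadjusted) and 0 members. A sample was closest to its own number in 2 of 4 gonadal and 1 of 4 subcutaneous cases. Npas2, below the stricter filters, has no value there. The lowest gonadal value of a member was 10.6 normalized counts, Npas2 in GFP 3, above the floor of 3 reads; the depth of the subcutaneous values is unknown.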
